A study of Rattus norvegicus with 8 samples.

Results

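The 10 genes described here encode the thrombospondins (Thbs1, Thbs2, Thbs3, Thbs4 and Comp), the tenascins C, R and N (Tnc, Tnr and Tnn), periostin (Postn) and SPARC, also called osteonectin (Sparc). They were selected by gene symbol from the 32545 genes of the count table, and each of the 10 had 1 row. Of these, 9 passed the filter on low counts and were tested among 16478 genes, whereas Tnr did not pass. The family was named with earlier results of these samples known, and the study itself had drawn attention to Thbs1 and Thbs2 from the comparison of both graft types. The fold changes and adjusted p values below therefore describe where each gene stood among all genes, and they are not independent evidence that the family changed.

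RNA-seq was performed on whole sciatic nerve tissue from outbred female Sprague Dawley (Envigo) rats aged 3 to 6 months. In 3 rats a removed length of sciatic nerve was replaced by a peripheral nerve allograft (PNA) that was PEG-fused, that is, sutured and exposed at the cut ends to polyethylene glycol, a polymer that joins closely apposed axonal membranes (PEG). In 3 negative control rats (NC) the PNA was sutured and received the same hypotonic, methylene blue and calcium-containing washes without polyethylene glycol. Both types of PNA were collected 14 days postoperatively (PO), and 2 unoperated sciatic nerves (Unop) had no graft. Donors and hosts were not matched and received no immune suppression, so both kinds of graft were exposed to the immune system of the host, and the excised graft can hold donor cells and host cells that entered it. The libraries held between 32472925 and 39959620 reads on genes. The labels name separate allografts and nerves, and p values measure the spread between these 8 libraries. In bulk tissue, fewer cells of a type and less RNA per cell cannot be told apart.

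Matricellular proteins are secreted into the extracellular matrix, where they mainly modify how cells and structural fibres interact rather than bear load. They are typically scarce in resting adult tissue and abundant during development and repair. Thrombospondins 1 and 2 are trimers that carry type 1 repeats. Both proteins can bind CD47 and CD36, and thrombospondin 1 can activate latent TGF-beta. Thrombospondins 3, 4 and COMP form the pentameric branch of the family. In injured peripheral nerve, tenascin C and periostin are known as matrix components encountered by regrowing axons and migrating Schwann cells, the glia that wrap peripheral axons.

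The sequence just before the transcription start is shown for 3 members, 1 for each of 3 patterns of normalized read counts described below. Thbs1 was higher in PEG-fused PNAs than in the other groups, Tnn was higher in both graft types than in Unop nerves, and Sparc was lower in NC PNAs than in Unop nerves. Each line gives the 140 bases before the start on the coding strand, from RefSeq on build GRCr8, at chr3:125510110-125510249 (plus strand) for Thbs1, chr13:74919790-74919929 (minus strand) for Tnn and chr10:40038817-40038956 (minus strand) for Sparc. Capitals mark matches, on either strand, to the motifs searched.
Thbs1: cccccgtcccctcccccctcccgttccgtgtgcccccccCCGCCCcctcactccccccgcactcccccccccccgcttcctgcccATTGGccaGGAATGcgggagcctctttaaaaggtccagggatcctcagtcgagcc
Tnn: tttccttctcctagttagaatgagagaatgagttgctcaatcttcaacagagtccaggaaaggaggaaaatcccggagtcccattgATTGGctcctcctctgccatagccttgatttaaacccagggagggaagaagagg
Sparc: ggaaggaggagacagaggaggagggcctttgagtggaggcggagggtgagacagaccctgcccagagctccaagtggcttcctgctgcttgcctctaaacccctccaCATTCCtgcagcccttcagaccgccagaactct

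The searched motifs were TATAAA for the TATA box, CCAAT for the CCAAT box, GGGCGG for the GC box, TGANTCA for the AP-1 site and GGAATG for the TEAD site. They were searched on both strands of the 300 bases from 250 before to 50 after the start, and none of the matches in the printed sequences overlapped another. Of the 10 members, 9 were matched by symbol to a promoter of that table. CCAAT on the minus strand (ATTGG as printed) began 55 bases before the start in Thbs1 and 54 bases before it in Tnn, and in all 4 of the 9 members (Thbs1, Thbs3, Tnr and Tnn) held CCAAT, which was present in 37.5% of the 33469 promoters of the table. GGGCGG was found in 4 of the 9 (Thbs1, Thbs3, Thbs4 and Tnc) and in 33.1% of all promoters. GGAATG stood 47 bases before the start of Thbs1 and, on the minus strand, 33 bases before the start of Sparc. With Tnn, at 154 bases, and Thbs4, at 178 bases before the start, 4 of the 9 held it, as did 14.2% of all promoters. Within the same 300 bases, TATAAA was found in Tnc, at 208 bases, and in Postn, at 44 bases before the start, against 14.2% of all promoters. TGANTCA, found in 7.33% of all promoters, was in none of the 9. The GC content of the 9 promoters ranged from 38.3% (Tnr) to 70.0% (Thbs4), with 67.0% in Thbs1, 43.7% in Tnn and 61.0% in Sparc, and the median over all promoters was 51.7%. A match is a match of letters and does not show that a factor binds there.

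To see how these genes differed between repair with and without polyethylene glycol, PEG-fused PNAs were compared with NC PNAs. Of the 9 tested members, 5 were higher in PEG-fused PNAs (Thbs1, Thbs2, Thbs4, Comp and Sparc, by 1.71 to 2.46-fold), none was lower, and the remaining 4 had fold changes above 1 that did not pass an adjusted p of 0.05. Among all tested genes, 15% were called higher and 13.9% lower. In 7 of 9 members, every PEG library lay above every NC library, as did 25.6% of all tested genes. The median log2 fold change was 0.82 over the 9 members and 0.0017 over all tested genes. Since the members were named with this comparison known, nothing is read from these counts beyond the values themselves. Only 3 members also exceeded a log2 fold change of 1 and so met the study's definition of a differentially expressed gene (DEG), namely Thbs1, Thbs2 and Thbs4, beside 4.41% of all tested genes in that direction. Normalized read counts of each library are plotted for the 10 genes.

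**Figure D1:**
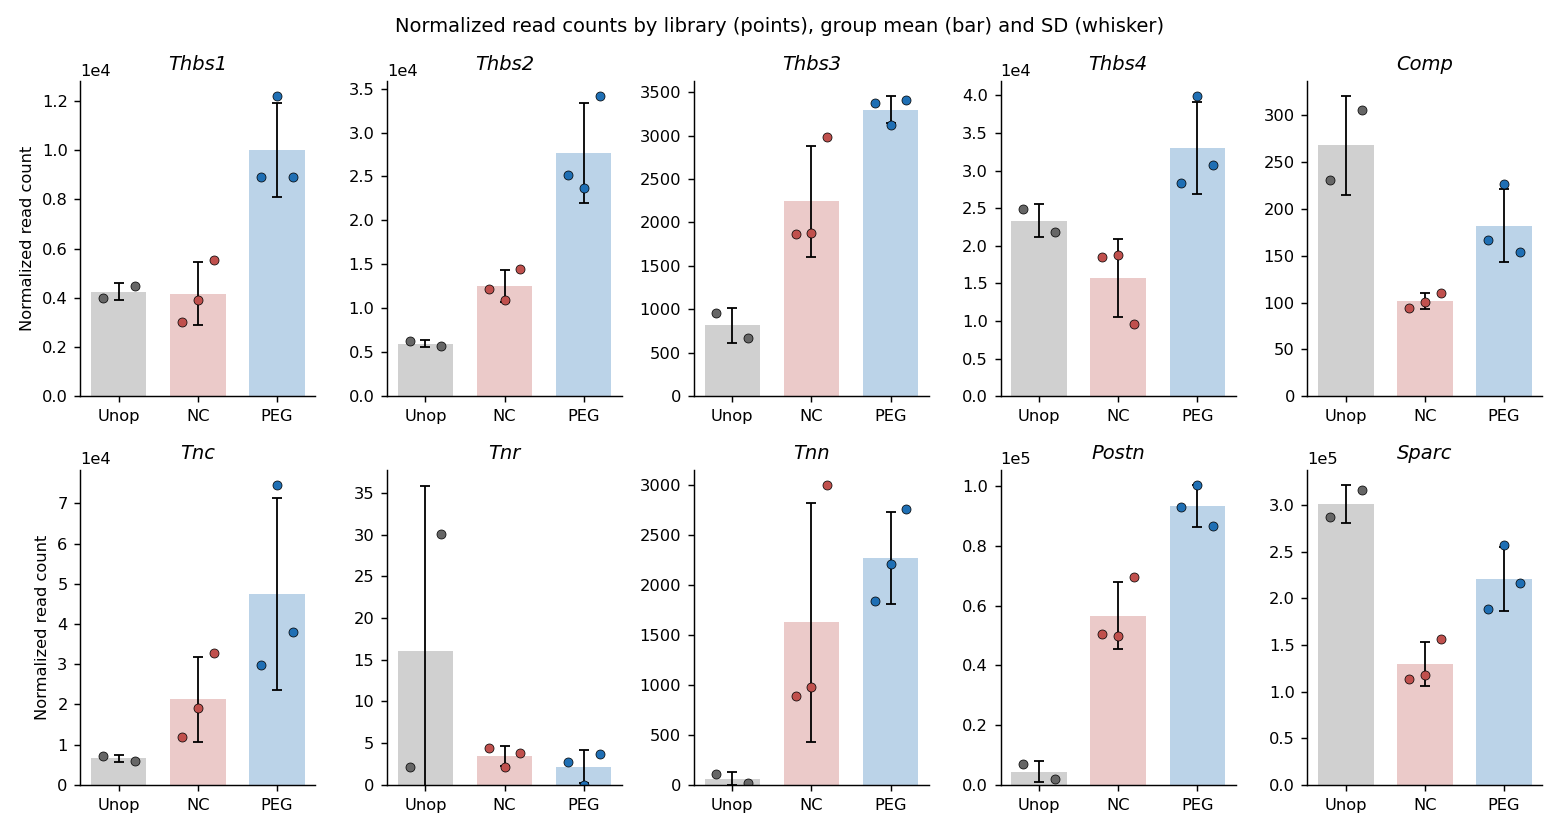
Normalized read counts (y axis, linear, from 0) of the 10 genes in Unop nerves (n = 2), NC PNAs (n = 3) and PEG-fused PNAs (n = 3); points are libraries, bars are group means and whiskers are SD. Thbs1 is highest in PEG, with NC and Unop overlapping, Thbs2 and Thbs3 step up from Unop to NC to PEG, Tnn and Postn are low in Unop nerves, and Comp and Sparc are lowest in NC PNAs.

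Thbs1 (ENSRNOG00000045829), which encodes thrombospondin 1, had 8914, 12194 and 8894 normalized read counts in the 3 PEG-fused PNAs. The NC PNAs had 3001, 3928 and 5529, and the Unop nerves 4001 and 4491. All PEG libraries were thus above all others, and the NC libraries spanned both Unop values. The means were 10000.4 ± 1899 (SD, n = 3) in PEG, 4153 ± 1279 (SD, n = 3) in NC and 4246 ± 347 (SD, n = 2) in Unop. The log2 fold change was 1.30 ± 0.22 (SE) for PEG vs NC (limma, adjusted p = 0.0041) and 1.22 ± 0.24 for PEG vs Unop (adjusted p = 0.0029). For NC vs Unop it was -0.075 ± 0.24 (adjusted p = 0.80), and its sign turned to 0.14 without NC replicate 1 and to 0.0084 without Unop replicate 2. The call of PEG vs NC held in all 18 alternatives, with log2 fold changes from 1.09 to 1.53.

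Thbs2 (ENSRNOG00000010529) encodes thrombospondin 2, which is closely related in structure to thrombospondin 1 and takes part in collagen fibril assembly. Its counts were 25139, 23684 and 34152 in PEG-fused PNAs, 12241, 10955 and 14495 in NC PNAs, and 6230 and 5696 in Unop nerves. The 3 groups did not overlap, and the order was Unop, NC, PEG. Thbs2 was the only member for which every step of this order was called. The log2 fold change was 1.13 ± 0.16 for PEG vs NC (limma, adjusted p = 0.0021), 1.07 ± 0.18 for NC vs Unop (adjusted p = 0.00093) and 2.20 ± 0.18 for PEG vs Unop (adjusted p = 2.2e-05). Of all tested genes, 2.28% were called at each step in this order. The call of PEG vs NC held in all 18 alternatives, with log2 fold changes from 0.97 to 1.32.

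Of the pentameric thrombospondins, Thbs3 (ENSRNOG00000059903) had 3373, 3122 and 3406 counts in PEG-fused PNAs, 1866, 1878 and 2983 in NC PNAs, and 957 and 673 in Unop nerves. The groups followed the same order as for Thbs2 without overlap, but NC replicate 3 lay close below the lowest PEG library. Both graft types were above Unop nerves, with a log2 fold change of 2.04 ± 0.22 for PEG (limma, adjusted p = 0.00011) and 1.44 ± 0.22 for NC (adjusted p = 0.00056). PEG vs NC was 0.59 ± 0.20 and missed the threshold (adjusted p = 0.056). Without NC replicate 3 it was 0.82 (adjusted p = 0.011), and DESeq2 on the recovered reads gave an adjusted p of 0.035.

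Thbs4 (ENSRNOG00000012471), known from tendon and muscle matrix, had 28322, 39927 and 30747 counts in PEG-fused PNAs. NC PNAs had 18555, 18779 and 9671, and Unop nerves had 24864 and 21779. Unop nerves thus lay between the graft types, with no overlap on either side. Only the graft types differed past the threshold, with a log2 fold change of 1.12 ± 0.26 for PEG vs NC (limma, adjusted p = 0.015). PEG vs Unop was 0.49 ± 0.29 (adjusted p = 0.18), and NC vs Unop was -0.63 ± 0.29 (adjusted p = 0.086). Single libraries changed each of these calls. PEG vs NC was 0.98 without PEG replicate 2 (adjusted p = 0.058), PEG vs Unop passed without NC replicate 3 (adjusted p = 0.039), and NC vs Unop passed without NC replicate 2 at -0.80 (adjusted p = 0.0499).

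Comp (ENSRNOG00000048472) encodes cartilage oligomeric matrix protein. Its counts were low, with 167, 226 and 154 counts in PEG-fused PNAs, 93.8, 101 and 110 in NC PNAs, and 231 and 305 in Unop nerves. The order was NC, PEG, Unop, with PEG replicate 2 close below the lower Unop nerve. Comp was lower in NC PNAs than in Unop nerves by a log2 fold change of -1.38 ± 0.22 (limma, adjusted p = 0.00072) and higher in PEG-fused than in NC PNAs by 0.82 ± 0.20 (adjusted p = 0.017). PEG vs Unop was -0.56 ± 0.22 (adjusted p = 0.059). PEG replicate 2 decided both comparisons with PEG, since without it PEG vs NC was 0.65 (adjusted p = 0.064) and PEG vs Unop was -0.72 (adjusted p = 0.026).

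Tenascin counts varied widely between libraries of a group. Tnc (ENSRNOG00000058645), whose product is a hexameric glycoprotein induced by injury, had 29781, 74641 and 37963 counts in PEG-fused PNAs, 11854, 19132 and 32830 in NC PNAs, and 7289 and 6062 in Unop nerves. NC replicate 3 exceeded PEG replicate 1, so the graft types overlapped, while both lay above Unop nerves. The coefficient of variation was 50.3% in PEG and 50.1% in NC. PEG vs NC was 1.17 ± 0.42 on the log2 scale and was not called (limma, adjusted p = 0.067), although without NC replicate 3 it was 1.54 (adjusted p = 0.030). Tnc was higher in PEG than in Unop by 2.72 ± 0.46 (adjusted p = 0.0012) and higher in NC than in Unop by 1.55 ± 0.46 (adjusted p = 0.018). The latter call was lost without Unop replicate 1 (1.69, adjusted p = 0.061) or without Unop replicate 2 (1.42, adjusted p = 0.10).

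Tnn (ENSRNOG00000002548) encodes tenascin N, also called tenascin W. Its counts were 1834, 2212 and 2755 in PEG-fused PNAs, 892, 983 and 3001 in NC PNAs, and 107 and 16.3 in Unop nerves. The highest library of all was NC replicate 3, and the other NC libraries lay below all PEG libraries. Both graft types were far above Unop nerves, by 51.7-fold for PEG (log2 fold change 5.69 ± 0.75, limma, adjusted p = 0.00032) and 32.0-fold for NC (log2 SE 0.75, adjusted p = 0.00050). These are the largest fold changes among the members, and their size rests on 2 Unop nerves that differed from each other: leaving out one or the other gave log2 fold changes of 4.37 and 7.02 for PEG vs Unop. PEG vs NC was 0.70 ± 0.67 (adjusted p = 0.47). Tnr (ENSRNOG00000002468), a tenascin of central nervous tissue, had between 0 and 5 reads in the 6 PNAs, 2 reads in Unop replicate 1 and 24 reads in Unop replicate 2. The 0 reads of PEG replicate 2 allow up to 3 reads by counting error alone, and no comparison was made for Tnr.

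Postn (ENSRNOG00000012660), whose product periostin binds collagen and integrins, had 93039, 100468 and 86613 counts in PEG-fused PNAs, 50626, 49797 and 69638 in NC PNAs, and 6840 and 1852 in Unop nerves. The 3 groups did not overlap. Postn rose in both graft types relative to Unop nerves, with a log2 fold change of 4.71 ± 0.45 for PEG (limma, adjusted p = 5.5e-05) and 3.98 ± 0.45 for NC (adjusted p = 0.00010). Leaving out one or the other Unop nerve gave 3.77 and 5.65 for PEG and 3.03 and 4.92 for NC, and both calls held. Although all PEG libraries exceeded all NC libraries, PEG vs NC was 0.74 ± 0.41 and was not called (adjusted p = 0.21). In the shared fit, the spread of a gene is estimated over all 3 groups, and the Unop nerves of Postn differed from each other (coefficient of variation 81.1%, against 7.43% in PEG and 19.8% in NC). With the PEG and NC libraries alone, the same fold change had an adjusted p of 0.024, and without Unop replicate 1 or Unop replicate 2 it had 0.017 or 0.019.

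Sparc (ENSRNOG00000012840) encodes a collagen-binding glycoprotein. Unlike Tnc, Tnn and Postn, it had its highest counts in Unop nerves, with 286578 and 315558. PEG-fused PNAs had 188865, 256938 and 216010, and NC PNAs had 113986, 118193 and 156843. The order was NC, PEG, Unop, without overlap. Sparc was lower in NC PNAs than in Unop nerves by a log2 fold change of -1.23 ± 0.26 (limma, adjusted p = 0.0030), a call that held in all 18 alternatives. PEG vs Unop was -0.46 ± 0.26 (adjusted p = 0.16, and 0.037 with DESeq2 on the recovered reads). PEG vs NC was 0.77 ± 0.23 (adjusted p = 0.037), and this call was the least stable of the family. It was lost without PEG replicate 1 (adjusted p = 0.051), PEG replicate 2 (0.12), PEG replicate 3 (0.10), NC replicate 1 (0.096) or NC replicate 2 (0.12), with log2 fold changes from 0.65 to 0.91 over the single libraries left out.

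Relative to Unop nerves, 6 of 9 members were higher in PEG-fused PNAs (Thbs1, Thbs2, Thbs3, Tnc, Tnn and Postn) and none was called lower, beside 29.1% of all tested genes called higher and 28.6% lower. In NC PNAs 5 members were higher (Thbs2, Thbs3, Tnc, Tnn and Postn) and 2 were lower (Comp and Sparc), beside 32.2% and 32.3% of all tested genes. The median log2 fold change of the members was 2.04 for PEG vs Unop and 1.07 for NC vs Unop, against 0.013 and 0.022 over all tested genes. Both comparisons share the Unop nerves, so their values stand side by side and do not support each other. Thbs1 and Thbs2 were called higher in PEG-fused PNAs than in both other groups, as were 5.03% of all tested genes.

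**Figure D2:**
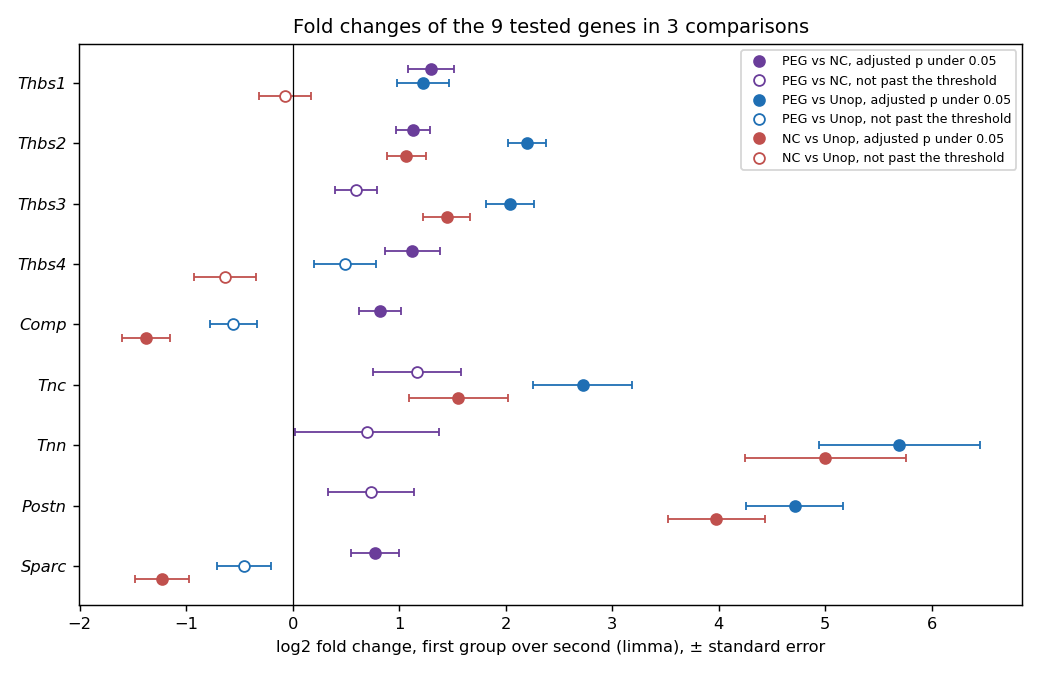
Log2 fold changes (x axis, limma) with SE whiskers for the 9 tested genes (rows) in the 3 comparisons between groups, named in the key; filled points passed an adjusted p of 0.05. All PEG vs NC points lie right of 0, from 0.59 (Thbs3) to 1.30 (Thbs1), while Comp and Sparc lie left of 0 in both comparisons with Unop nerves.

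Within the NC group the members moved together between libraries. NC replicate 3 had the highest count of the group for 8 of 9 members, Thbs4 being the exception with its lowest count there, whereas NC replicate 3 was the highest of its group for 26.9% of all tested genes. NC replicate 1 had the lowest count for 6 members (36.7% of all tested genes). Among PEG-fused PNAs, replicate 2 was the highest for 6 members (37.7% of all tested genes) and replicate 3 for 3 members (32.6%). This order was noticed in these same libraries, and the members are not independent of each other, so the counts are a description of 3 libraries in each group.

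**Figure D3:**
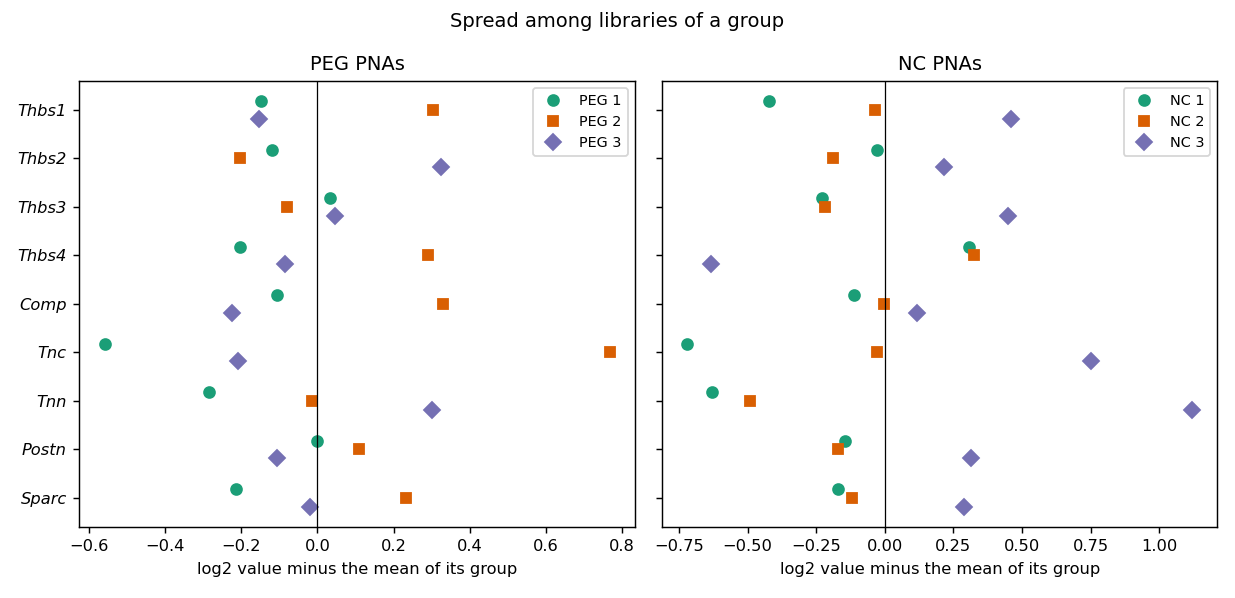
Deviation of each library from its group mean on the log2(normalized count + 1) scale (x axis) for the 9 tested genes (rows), in PEG-fused PNAs (left) and NC PNAs (right); the axes differ in range. In the right panel NC 3 is the rightmost point in 8 rows and the leftmost for Thbs4.

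Skeletal muscle surrounds the sciatic nerve, and the amount of muscle transcripts differed between these libraries. The summed count of 9 skeletal muscle fibre markers was 834688 in NC replicate 1, 298371 in NC replicate 3 and 13526 in NC replicate 2, compared with 3233 to 19079 in PEG-fused PNAs and 7635 and 44686 in Unop nerves. Its part in the members' differences was not tested. With NC replicates 1 and 3 left out, an alternative added after the data were seen, 3 members were called in PEG vs NC, namely Thbs1 (1.33, adjusted p = 0.011), Thbs2 (1.32, adjusted p = 0.013) and Thbs3 (0.81, adjusted p = 0.034). The remaining NC library was then assumed to vary like the other groups, and the log2 fold changes of Thbs4 (0.80, adjusted p = 0.052), Comp (0.82, adjusted p = 0.10) and Sparc (0.89, adjusted p = 0.13) no longer passed.

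Markers of cells that could express these genes were examined in the same libraries. The summed count of 6 fibroblast markers, cells that secrete much of the matrix of nerve, was 169972 to 189084 in PEG-fused PNAs, 108304 to 149663 in NC PNAs, and 219671 and 289121 in Unop nerves. The order of the sum was set by Dcn, with 174085 and 221810 counts in Unop nerves and 58013 to 88690 in the PNAs. In PEG vs Unop, 2 of the 6 were higher (Pdgfra and Lum) and 2 were lower (Dcn and Clec3b), beside 29.1% and 28.6% of all tested genes. In PEG vs NC, only Pdgfra was called, and it was higher (0.31, limma, adjusted p = 0.019). Among all tested genes, 15% were called higher and 13.9% lower in PEG vs NC. The sum of 6 Schwann cell markers was 61478 to 67918 in PEG, 22783 to 59400 in NC, and 1342080 and 1580540 in Unop. Of the 6, 4 were called higher in PEG vs NC (Sox10, S100b, Erbb3 and Cdh19), beside the same 15% of all tested genes. Defining markers of nerve were thus present in all 8 libraries. The sum of 7 macrophage markers went the other way, with 83930 to 101715 in PEG, 132016 to 152794 in NC and 15222 and 25335 in Unop. Of the 7, 6 were lower in PEG than in NC, beside the same 13.9% of all tested genes. Their part in the members' differences was not tested.

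For Comp and Thbs4, which are known from tendon and cartilage, the sum of 11 markers of those tissues was 6315 to 10531 in PEG-fused PNAs, 4647 to 5427 in NC PNAs, and 10173 and 12929 in Unop nerves. Of the 11, 2 were called higher in PEG vs NC (Sox9 and Cilp) and none lower, beside 15% and 13.9% of all tested genes. Cilp alone made up most of the sum in each PNA. Of the defining tendon genes, Scx had 26.9 to 47.7 counts in PEG, 15.1 to 179 in NC, and 82.6 and 92.6 in Unop. Tnmd had 33.8 to 61.7 counts in the PNAs, 60.1 in Unop replicate 1 and 693 in Unop replicate 2. The cartilage gene Chad had 14.3 to 45.3 counts in the PNAs, 2.15 in Unop replicate 1 and 871 in Unop replicate 2, so Tnmd and Chad set the Unop nerves apart from each other. Col2a1 had 721 and 809 counts in Unop nerves and 0.965 to 155 in the PNAs, and Fmod had 5820 and 6960 against 368 to 762. Acan went the other way, with 6.44 and 1.25 against 13.4 to 176. Relative to Unop nerves, 3 of the 11 were higher and 5 lower in PEG (29.1% and 28.6% of all tested genes). In NC, 1 was higher and 4 were lower (32.2% and 32.3%). For Tnr, a gene of central nervous tissue, the sum of 5 central glial markers was 831 to 1082 in PEG-fused PNAs, 464 to 914 in NC PNAs, and 2763 and 3316 in Unop nerves. Most of it was Gfap, which is also known from Schwann cells and had 367 to 912 counts in the PNAs and 2575 and 3154 in Unop nerves. Mog had 83.9 to 189 counts over the 8 libraries, and Olig2 was at 0 in NC and Unop libraries and under 3 counts in PEG. For Thbs1, which platelets store, 1 of 4 tested platelet and megakaryocyte markers was higher and 2 were lower in PEG vs NC. This stood beside 15% and 13.9% of all tested genes. Pf4, which encodes platelet factor 4, had 4045 to 5880 counts in PEG, 1965 to 2479 in NC and 615 and 1152 in Unop. Like Thbs1, it was higher in PEG vs NC (1.16, limma, adjusted p = 0.0079). Unlike Thbs1, it was also higher in NC vs Unop (1.36, adjusted p = 0.0019). Itga2b (-2.65, adjusted p = 0.0012) and Gp9 (-1.01, adjusted p = 0.044) were lower in PEG vs NC, Gp5 was at 0 in all 8 libraries, and Ppbp had at most 3.22 counts. The part of platelets in the difference of Thbs1 was not tested. T cell markers summed to 7058 to 10394 in PEG, 24394 to 41651 in NC and 1726 and 2047 in Unop, endothelial markers to 8640 to 11552, 8490 to 10548 and 15703 to 16004, and smooth muscle markers to 18941 to 23520, 16903 to 42603 and 41680 to 51274. Des made up most of the smooth muscle sum in the muscle-rich NC replicates 1 and 3, with 33528 and 21082 counts. It had 7450 in NC replicate 2 and 3469 to 4680 in PEG. Of the 6 smooth muscle markers, 2 were higher in PEG vs NC (Acta2 and Rgs5) and 1 was lower (Des). The shares of all tested genes were 15% and 13.9%.

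**Figure D4:**
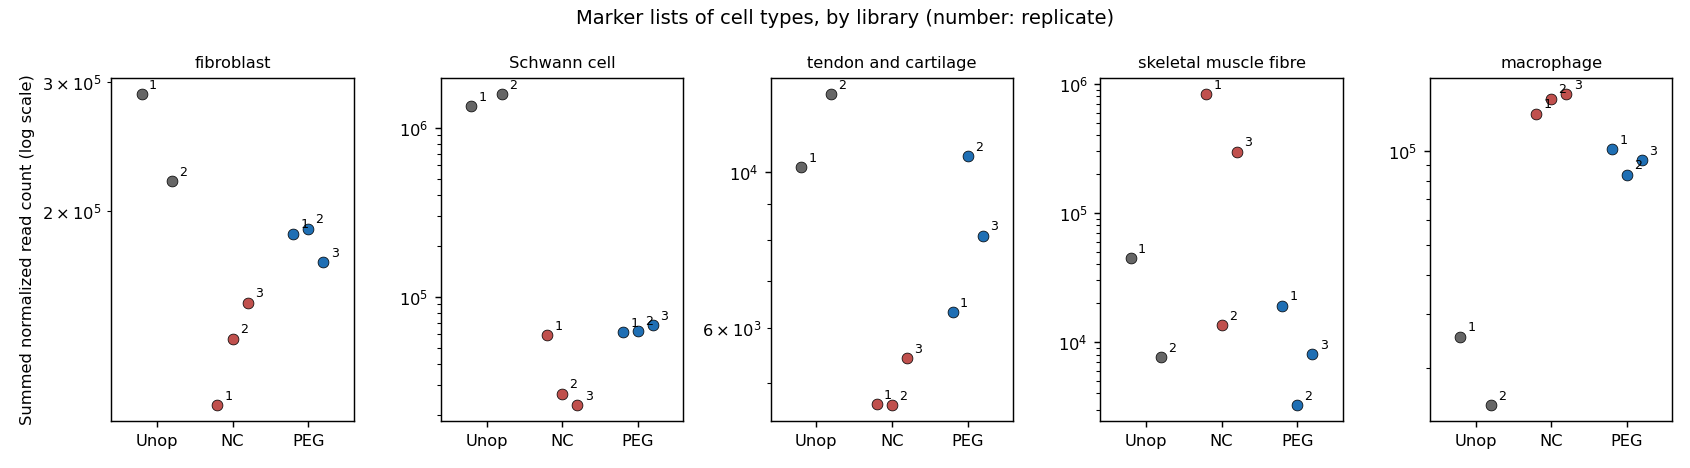
Summed normalized read counts (y axes, log scale) of 5 marker lists in each library, with the replicate number beside each point, for Unop nerves, NC PNAs and PEG-fused PNAs. Fibroblast and tendon and cartilage sums are lowest in NC, macrophage sums are highest in NC, and muscle fibre sums set NC 1 and NC 3 apart.

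Other matricellular genes were examined to see whether the members' patterns occur outside the family. Of 20 symbols listed, 14 had a row and 12 were tested. In PEG vs NC, 6 of 12 were higher and none was lower, beside 15% and 13.9% of all tested genes. The median log2 fold change was 0.82. In NC vs Unop none was higher and 7 were lower, with a median of -1.03, beside 32.2% and 32.3% of all tested genes. The 6 called in PEG vs NC were Spp1, Smoc2, Spock2, Fstl1, Wisp1 and Sparcl1. Spp1, encoding osteopontin, a secreted phosphoprotein bound by integrins and CD44, had 92747, 109995 and 133087 counts in PEG-fused PNAs, 21038, 12807 and 16517 in NC PNAs, and 125466 and 88731 in Unop nerves. PEG-fused PNAs overlapped Unop nerves, and NC PNAs were far below both. PEG vs NC was 2.75 ± 0.23 (limma, adjusted p = 0.00047) and NC vs Unop was -2.68 ± 0.26 (adjusted p = 3.7e-05), while PEG vs Unop was 0.070 ± 0.26 (adjusted p = 0.83).

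Smoc2, a SPARC-related modular calcium-binding protein, had means of 5407, 2436 and 5359 in PEG, NC and Unop, with log2 fold changes of 1.16 ± 0.16 for PEG vs NC (limma, adjusted p = 0.0020) and -1.16 ± 0.18 for NC vs Unop (adjusted p = 0.00062). Spock2, a testican proteoglycan with a SPARC-like domain, fell in both graft types relative to Unop nerves and had means of 62.2, 10.2 and 871. Wisp1, a member of the CCN family, had means of 1540, 726 and 2822, and Sparcl1, the closest relative of SPARC, had 7308, 4315 and 31477. Both were lowest in NC, like Sparc. Unlike Sparc, both were also called lower in PEG vs Unop (Wisp1 -0.90, limma, adjusted p = 0.014, and Sparcl1 -2.14, adjusted p = 7.7e-05). Log2 fold changes in PEG vs NC were 2.75 ± 0.49 for Spock2 (limma, adjusted p = 0.0050), 1.07 for Wisp1 (adjusted p = 0.0098) and 0.74 for Sparcl1 (adjusted p = 0.026). The size for Spock2 rests on low NC counts of 20.6, 4.30 and 5.79, and it was 2.03 with a pseudocount of 8. Its call held in all 18 alternatives. The call of Sparcl1 was lost without PEG replicate 2 (adjusted p = 0.053), NC replicate 1 (0.065), NC replicate 2 (0.067) or both muscle-rich NC libraries (0.078). Fstl1, a secreted follistatin-like glycoprotein, was higher in PEG than in NC (0.91, adjusted p = 0.0073) and than in Unop (1.13, adjusted p = 0.0015), while NC vs Unop was 0.21 (adjusted p = 0.37), the pattern of Thbs1.

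Of 8 listed genes for thrombospondin receptors, Cd36 had no row and 7 were tested. In PEG vs NC none of the 7 was higher and 1 was lower, beside 15% and 13.9% of all tested genes. The median log2 fold change was 0.029. The lower gene was Sdc4, a heparan sulphate proteoglycan of the cell surface, with means of 2005, 2600 and 3193 in PEG, NC and Unop (-0.38 ± 0.089, limma, adjusted p = 0.016), and its call was lost without PEG replicate 1 (adjusted p = 0.059), without PEG replicate 3 (0.058) or without both muscle-rich NC libraries (0.12). Scarb2 (0.16, adjusted p = 0.20) and Sdc1 (0.45, adjusted p = 0.44) were next in rank, and Sdc1 was at -0.080 without NC replicate 1. Relative to Unop nerves, 5 of the 7 were higher in each graft type (Cd47, Lrp1, Calr, Cacna2d1 and Sdc1) and 2 were lower (Sdc4 and Scarb2). In those comparisons, 29.1% of all tested genes were higher and 28.6% lower for PEG, and 32.2% and 32.3% for NC. Of 13 integrin subunits and other receptors for tenascins and periostin, 7 were higher and 1 was lower in PEG vs NC. This stood beside 15% and 13.9% of all tested genes. Itgb6, named after its values were seen, was the lower gene, and the list median was 0.51. Itga7, the laminin-binding alpha 7 subunit, had means of 6139, 3014 and 4749 (1.03 ± 0.072, adjusted p = 0.00034), Itgav, the alpha v subunit, 2804, 1319 and 1963 (1.08 ± 0.17, adjusted p = 0.0031), and Itgb5, the beta 5 subunit, 2277, 1338 and 2434 (0.79 ± 0.13, adjusted p = 0.0040).

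Collagen fibrils are the scaffold on which several members act. In PEG vs NC, 10 of 13 genes for collagens and fibril assembly were called higher and none lower, with a median log2 fold change of 0.97. The shares of all tested genes were 15% and 13.9%. All 13 were higher in PEG than in Unop, beside 29.1% of all tested genes. In NC vs Unop, 2 of 13 were higher (Fn1 and Plod2, named after their values were seen), beside 32.2%. Col12a1, a fibril-associated collagen, had 9830, 14729 and 12607 counts in PEG-fused PNAs, 3465, 4158 and 5828 in NC PNAs, and 2847 and 3606 in Unop nerves (PEG vs NC 1.48 ± 0.21, limma, adjusted p = 0.0022). Serpinh1, the collagen chaperone HSP47, followed at 0.97 (adjusted p = 0.0023) and Col5a2 at 1.04 (adjusted p = 0.0079). The study had reported collagens from these samples, so this list is not independent of them.

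Of 12 genes of TGF-beta ligands, activation and response, 3 were higher and 1 was lower in PEG vs NC, with a median of 0.24. The shares of all tested genes were 15% and 13.9%. The lower gene was Smad7, an inhibitor of TGF-beta signalling named after its values were seen. Relative to Unop nerves, 29.1% of all tested genes were higher and 28.6% lower in PEG, and 32.2% and 32.3% in NC. From the list, 8 were higher in PEG, and 8 were higher and 1 was lower (Tgfbr2) in NC. The 8 shared 6 genes, with Tgfb3 and Tgfb1i1 called in PEG and Smad3 and Smad7 in NC. The 3 were Tgfb1i1, encoding the focal adhesion protein Hic-5 (1.10 ± 0.20, limma, adjusted p = 0.0051, and 0.059 without both muscle-rich NC libraries), Tgfbr1, encoding the type I receptor (0.73 ± 0.15, adjusted p = 0.0086), and the ligand gene Tgfb3 (1.22 ± 0.27, adjusted p = 0.011). Of 20 other genes for proteins with thrombospondin type 1 repeats, 8 were higher and none was lower in PEG vs NC. This stood beside the same 15% and 13.9% of all tested genes, and the list median was 0.67. The leading 3 encode secreted metalloproteinases, Adamts4 (1.34 ± 0.17, adjusted p = 0.0013), Adamts12 (1.19 ± 0.15, adjusted p = 0.0015) and Adamts9 (1.20 ± 0.16, adjusted p = 0.0015). All 3 were also higher in both graft types than in Unop nerves, the order of Thbs2.

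**Figure D5:**
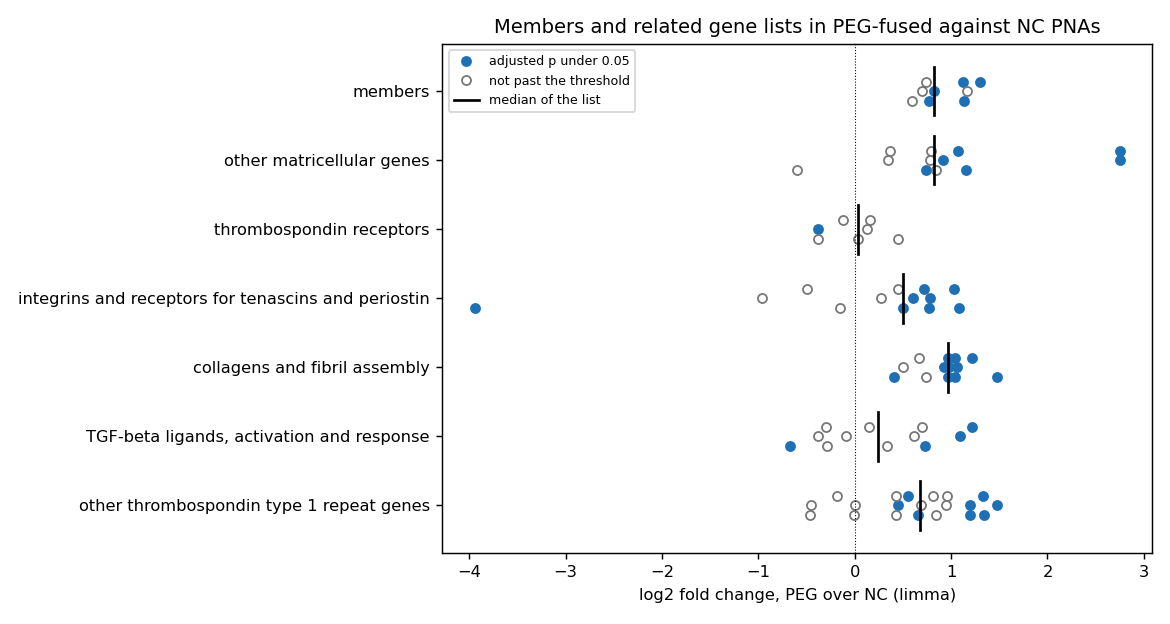
Log2 fold changes in PEG-fused against NC PNAs (x axis, limma) of the members and of 6 related gene lists (rows); each point is a gene, filled where the adjusted p was under 0.05, and bars are list medians. Member and collagen medians lie at 0.82 and 0.97, and the thrombospondin receptor median at 0.029; the point near -4 is Itgb6.

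The genes whose log2 counts were most similar to each member over the 8 libraries were listed without regard to function. Thbs1 was closest to LOC108348250 (Pearson r = 0.993) and Lrp12 (0.988), Thbs2 to Ctsd (0.991) and Met (0.986), and Thbs3 to AABR07030793.2 (0.992) and Fam167b (0.991). Thbs4 was closest to Gcat (0.992) and Ska2 (0.992), and Comp to Tmem87b (0.990) and Wisp1 (0.989), the CCN gene described above. Tnc was closest to Cercam (0.989) and the collagen gene Col3a1 (0.988), and Tnn to Eef1akmt3 (0.991) and Steap2 (0.989). Postn was closest to Clec2dl1 (0.997) and E2f7 (0.996), and Sparc to Enpp1 (0.997) and Tmem44 (0.994). Each r is the highest among 16478 genes and is carried largely by 3 group means, so it is a description of these libraries.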

How the data were processed

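The signal values deposited by the authors are normalized read counts per gene: paired-end reads from TruSeq Stranded mRNA libraries were aligned to Rnor 6.0 with Tophat2, counted per gene with HTSeq-count and scaled with DESeq2 size factors (median of ratios). The authors' columns of log2 fold changes, standard errors, Wald statistics and p values per comparison were not used. After division by a constant per library, 100% of values were whole reads within 0.001.

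Of 22798 genes with a read, the 16478 that reached 10 normalized counts in 2 or more libraries were tested with limma 3.58.1 (trend, R 4.3.3) on log2(normalized count + 1), so fold changes of low genes are understated. All 8 libraries entered 1 fit by group, and p values were adjusted by the Benjamini-Hochberg method over all tested genes. A gene was called at an adjusted p under 0.05. DESeq2 1.42.0 and edgeR 4.0.16 (quasi-likelihood, TMM) on the recovered whole reads were alternatives, beside another scaling, pseudocount, filters, group choice, a robust fit, a replicate block and each library left out. The count tests are alternatives because the files hold normalized counts. The limma fit was tested on simulated counts with the same dispersion for all genes, and the DESeq2 and edgeR fits were not tested in this way.

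The members and all gene lists were chosen with earlier results of these data known. Named genes were the 10 members, the 3 genes of each list with the smallest adjusted p in PEG vs NC, every other matricellular gene called there, and the 2 genes most correlated with each member. Promoter sequences were from RefSeq (GRCr8), a build other than that of the counts, and were matched by symbol. No gene coordinates on Rnor 6.0 are given.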

Additional observations from a re-analysis of the deposited data

How the results depend on the processing

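Of the members' calls, those of Thbs1 and Thbs2 in PEG vs NC, of Thbs1, Thbs2, Thbs3, Tnc, Tnn and Postn in PEG vs Unop, and of Thbs2, Thbs3, Comp, Tnn, Postn and Sparc in NC vs Unop held in every alternative run. The 5 members called in PEG vs NC became 2 without PEG replicate 2 (Thbs1 and Thbs2), 7 without NC replicate 3, 3 where a log2 fold change past 1 was also required, and 3 without both NC libraries rich in muscle transcripts, and leaving out each library gave 2 to 7. The ranges were 6 to 7 for PEG vs Unop (6 in the main analysis) and 6 to 8 for NC vs Unop (7). Without the fold change threshold, DEGs numbered 4763 in PEG vs NC, 9513 in PEG vs Unop and 10627 in NC vs Unop, instead of 1903, 5326 and 6359, and leaving out libraries gave 1333 to 1882, 4915 to 5439 and 5999 to 6409. Genes called from the 6 related lists ranged from 25 to 36 (37 with all libraries), 47 to 63 (61) and 42 to 53 (50). Directions turned in 4 cases that were never called: Thbs1 in NC vs Unop (-0.30 to 0.14 over the libraries left out) to 0.14 without NC replicate 1 (adjusted p = 0.59) and to 0.0084 without Unop replicate 2 (adjusted p = 0.99), and Sdc1 in PEG vs NC (-0.080 to 0.76) to -0.080 without NC replicate 1 (adjusted p = 0.80) and to -0.18 without both muscle-rich NC libraries (adjusted p = 0.66). The cause was not tested.

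The samples of the groups share replicate numbers but nothing in the labels ties same-numbered animals to each other, and same-numbered PEG and NC libraries deviated together by correlations of 0.11, 0.11 and -0.05, so the numbers were not taken to pair the samples. With a replicate block, 5 members were still counted in PEG vs NC, but Thbs3 passed (adjusted p = 0.043) and Sparc did not (adjusted p = 0.069). Sparcl1 did not pass either (adjusted p = 0.054). DEGs numbered 1844 with the block. On the recovered whole reads, PEG vs NC had 2177 DEGs with DESeq2 and 2090 with edgeR. TMM scaling moved the median log2 fold change of all genes by at most 0.018. With 2 Unop nerves, the size of the fold changes of Tnn and Postn against Unop depends on which nerve is used. Tnr, with at most 24 reads, was left out by the filter on low counts.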
